A study of Mus musculus with 4 samples.

Results

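The nuclear genes for the subunits of respiratory complexes II, III, IV and V, with those for cytochrome c, were examined in adult mouse hearts, in RNA of isolated mitochondria and of the tissue that remained, the rest fraction. The genes were chosen by name and biotype alone: protein-coding genes outside the mitochondrial chromosome whose symbols begin with Sdh, Uqcr, Cyc1, Cycs, Cox4 to Cox8 or Atp5 in the usual nomenclature, leaving out the heart and liver isoform genes Cox6a1, Cox6a2, Cox7a1, Cox7a2, Cox8a and Cox8b. They numbered 40 of the 15746 genes listed: 4 for complex II, 9 for complex III, 1 for cytochrome c, 9 for complex IV and 17 for complex V. Cox4i2 stayed under the limit of 10 normalized counts in at least 2 libraries, which left 39 genes for the tests.

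All libraries came from the hearts of WT mice, with 2 libraries for each fraction. Heart homogenate was spun at low speed, and the pellet of debris was the rest fraction, which the labels call tissue minus mitochondria. The supernatant was spun harder to pellet the fraction labelled isolated mitochondria, which was then treated with digitonin, a detergent that opens cholesterol-containing membranes, and with RNase A, an enzyme that degrades accessible RNA. The sources used here describe this treatment and an adjusted RNA fragmentation time for the mitochondrial samples only, so that these steps and the fraction cannot be told apart. They do not give the number of animals behind a library, and nothing in them says that the 2 libraries of a fraction came from separate hearts, so the p-values measure the spread between these libraries, which may be technical.

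Complex II oxidises succinate and passes electrons to ubiquinone, complex III passes them on to cytochrome c, and complex IV passes them from cytochrome c to oxygen. Complexes III and IV pump protons out of the matrix as they do so, and complex V, the ATP synthase, lets the protons back in to make ATP. Complex II is encoded by nuclear genes alone, whereas the other complexes mix nuclear subunits, translated on cytosolic ribosomes and imported, with subunits made inside the organelle. Heart muscle depends on this chain for nearly all of its ATP, and some mRNAs of imported proteins are known to be translated at the mitochondrial surface.

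Subunit c shows how far these mRNAs can differ while their product does not. A ring of identical copies of this small protein turns in the membrane part of the ATP synthase, and 3 genes, Atp5g1 (chr11:96068852-96075670), Atp5g2 (chr15:102662864-102672352) and Atp5g3 (chr2:73908447-73911326; GRCm38, all on the minus strand), encode it behind different targeting peptides. The last 237 coding bases of each mRNA, stop codon included, are given from the GENCODE M21 transcripts, with capitals at the 64 positions where the 3 genes differ.

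Atp5g1: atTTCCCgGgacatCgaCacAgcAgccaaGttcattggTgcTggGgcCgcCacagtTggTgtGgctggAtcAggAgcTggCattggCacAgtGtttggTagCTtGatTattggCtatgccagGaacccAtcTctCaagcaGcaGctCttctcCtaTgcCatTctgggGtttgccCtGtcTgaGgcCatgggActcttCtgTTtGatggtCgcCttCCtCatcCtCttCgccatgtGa

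Atp5g2: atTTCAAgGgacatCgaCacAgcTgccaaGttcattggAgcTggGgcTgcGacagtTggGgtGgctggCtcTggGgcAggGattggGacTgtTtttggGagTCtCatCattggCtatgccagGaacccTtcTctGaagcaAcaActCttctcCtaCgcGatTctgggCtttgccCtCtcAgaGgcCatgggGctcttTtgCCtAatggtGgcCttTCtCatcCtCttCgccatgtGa

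Atp5g3: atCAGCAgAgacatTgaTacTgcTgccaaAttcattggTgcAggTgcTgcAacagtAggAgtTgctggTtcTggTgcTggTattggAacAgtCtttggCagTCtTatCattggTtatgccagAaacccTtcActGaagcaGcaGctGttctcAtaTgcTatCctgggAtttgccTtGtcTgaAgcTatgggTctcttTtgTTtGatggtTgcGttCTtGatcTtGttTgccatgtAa

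These bases encode the same 78 residues in all 3 genes. At the RNA level Atp5g1 and Atp5g2 were 84.8% identical, with 36 differing bases and a longest shared run of 21 bases. Atp5g1 and Atp5g3 were 78.5% identical and shared at most 11 bases in a row, and Atp5g2 and Atp5g3 were 77.2% identical with runs of at most 8 bases, so that reads across the shared protein end can be told apart between the 3 genes.

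The promoters of 30 of the 40 genes were found in the RefSeq table (GRCm38.p6), as windows from 250 bases before to 50 bases after a transcript start. Windows were searched on both strands for the letters GCGCATGC, the core bound by NRF1, and CCGGAAG, a core bound by GABPA, factors known as activators of respiratory chain genes. The NRF1 letters were in 7 of the 30 genes (23.3%) and in 3.05% of all 27025 genes with a promoter window. The GABPA letters were in 11 of the 30 genes (36.7%) and in 9.93% of all genes. The letters AAGATGGCG of YY1 were in 2 genes (6.67%, against 1.64% of all genes), and TCAAGGTCA of the oestrogen-related receptors in 2 genes (6.67%, against 0.466%). The NRF1 and the GABPA letters occurred together in 4 genes, Atp5k, Uqcr11, Sdhb and Atp5l. Of these Atp5k and Uqcr11 were called higher in mitochondria, whereas Sdhb and Atp5l were not, with log2 fold changes of 1.25 and 1.17. The windows of Atp5k and Uqcr11 are given as examples, with the NRF1 and the GABPA letters in capitals on whichever strand. In Atp5k the NRF1 letters of the other strand overlap the marked ones, and their last bases, gc, are left in lower case. The Atp5k window lies at chr5:108434350-108434649 and the Uqcr11 window at chr10:80406772-80407071, both on the minus strand.

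Atp5k: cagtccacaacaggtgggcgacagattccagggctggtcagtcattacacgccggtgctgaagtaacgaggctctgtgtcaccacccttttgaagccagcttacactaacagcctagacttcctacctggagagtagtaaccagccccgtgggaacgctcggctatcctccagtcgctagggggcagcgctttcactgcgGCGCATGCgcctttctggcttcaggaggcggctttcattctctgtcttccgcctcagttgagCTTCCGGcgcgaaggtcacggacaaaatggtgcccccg

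Uqcr11: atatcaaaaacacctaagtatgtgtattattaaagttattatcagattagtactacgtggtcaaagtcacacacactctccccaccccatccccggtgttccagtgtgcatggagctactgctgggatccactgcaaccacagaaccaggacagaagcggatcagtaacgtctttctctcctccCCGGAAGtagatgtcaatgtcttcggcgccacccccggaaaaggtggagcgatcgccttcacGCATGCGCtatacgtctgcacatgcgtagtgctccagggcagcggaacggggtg

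A match is a description of the letters in the window and was not tested for binding.

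The deposited values are normalized counts, that is, reads per gene divided by a factor for each library. A read was worth 3.87 and 2.55 normalized counts in mitochondria, and 0.264 and 0.365 in rest, so that 3 reads reached 11.6, 7.65, 0.793 and 1.10 normalized counts, a floor for counting error only. From these steps the reads on genes were estimated at 47400000 and 32100000 for mitochondria and 26300000 and 23500000 for rest. RNA of the mitochondrial chromosome made up 97.6% and 93.5% of the normalized counts in mitochondria and 63.2% and 67.5% in rest. As a result the 40 genes were covered by some 16186 and 18385 reads of mitochondria, against 92456 and 60416 of rest. Of all 12150 genes tested, 262 (2.16%) were called higher in mitochondria and 169 (1.39%) lower, at an adjusted p under 0.05 in limma.

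Relative to other nuclear genes, mRNAs for complexes II to V were higher in the mitochondrial fraction. Of the 39 genes tested, 20 were called higher under the deposited scaling, against 2.16% of all genes, and 0 lower, against 1.39%. At an unadjusted p under 0.05 it was 37 higher, against 14.1% of all genes, and 0 lower, against 16.2%. The log2 fold change was above 0 for all 39 genes, with a median of 1.68 (3.20-fold), where the median of all genes tested was -0.14. Both mitochondrial libraries lay above both rest libraries in 38 of the 39 genes, as in 27.7% of all genes, and the libraries overlapped for Sdha alone. These directions are relative to other nuclear genes and depend on the scaling. Scaled to the library total, which the mitochondrial chromosome dominates, all 39 genes were called lower in mitochondria, as were 98.9% of all genes tested. Their median log2 fold change was then -2.29. Scaled to the total without that chromosome, 32 of the 39 genes were above 0 and the lowest was at -0.78, where the median of all genes was -0.98. The difference between the median of the 39 genes and that of all genes was 1.82 under the deposited scaling and 1.63 scaled to the library total. A scaling shifts all genes of a library nearly alike, so it could hardly move this difference.

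**Figure D1:**
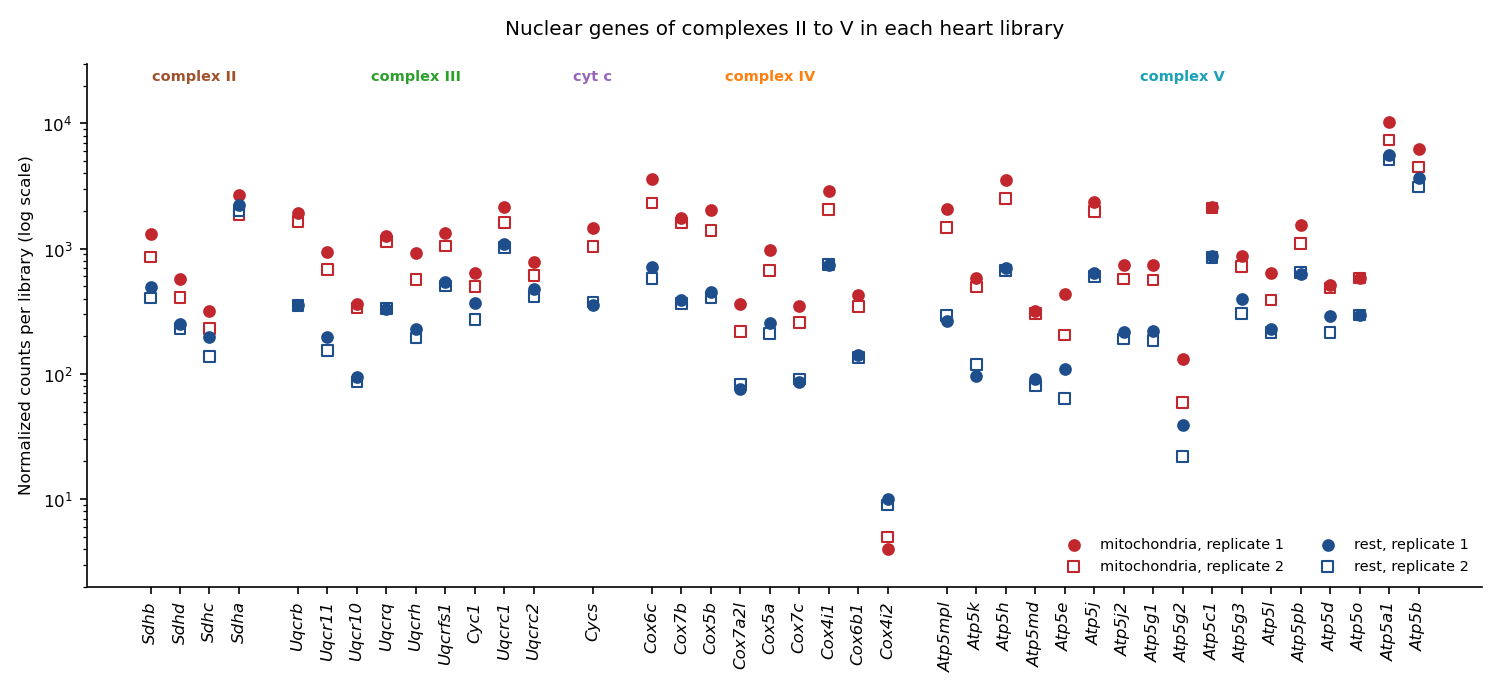
Normalized counts (log scale, vertical) of the 40 genes by complex, with a point for each of the 2 mitochondrial (red) and 2 rest libraries (blue). Under the deposited scaling both mitochondrial points lie above both rest points for 38 of the 39 tested genes, they overlap for Sdha, and Cox4i2 sits at 4 and 5 against 10 and 9; scaled to the library total all 39 tested genes would be lower in mitochondria, as would 98.9% of all genes.

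Summed over the 40 genes, the normalized counts were 62690 and 46901 in mitochondria and 24430 and 22077 in rest. Within the nuclear protein-coding total of each library, a measure that no scaling between libraries can alter, the genes took up 2.88% and 2.55% in mitochondria and 1.22% and 1.08% in rest. The share of complex IV was 0.569% and 0.483% in mitochondria against 0.142% and 0.128% in rest. Complex III took up 0.473% and 0.445% against 0.183% and 0.163%, and complex V 1.54% and 1.38% against 0.715% and 0.635%. Complex II differed least, with 0.225% and 0.183% against 0.158% and 0.136%. The fractions did not overlap for any of these shares. As a share of all RNA outside the mitochondrial chromosome, noncoding RNA included, the 40 genes made up 1.40% and 0.884% in mitochondria and 0.955% and 0.792% in rest, and on that measure the fractions overlapped. In bulk RNA, a different makeup of cells in a fraction and a different amount of each mRNA per cell cannot be told apart.

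**Figure D2:**
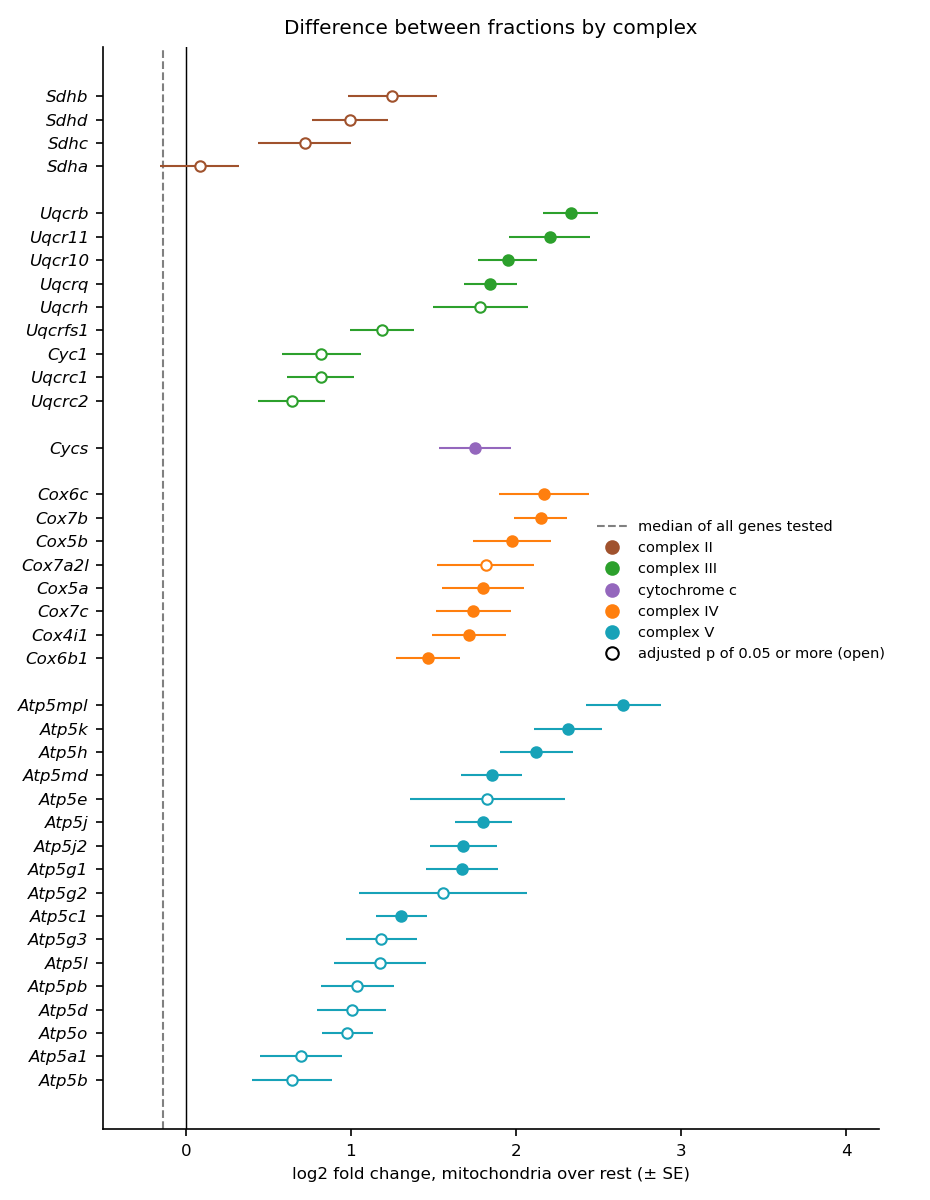
Log2 fold change of mitochondria over rest for the 39 tested genes by complex, with a point for each gene, bars for its standard error, filled points for the 20 genes called and a dashed line at the median of all genes tested (-0.14). Complexes III, IV and V reach from 0.64 to 2.65, complex II from 0.09 to 1.25; under scaling to the library total all values would be negative.

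Complex II was the group with the lowest values. None of its 4 genes was called, and their median log2 fold change was 0.86. Sdha, the flavoprotein that oxidises succinate (chr13:74322254-74350280), was at 2699 and 1870 normalized counts in mitochondria and 2230 and 2011 in rest. The fractions overlapped, and the log2 fold change was 0.09 ± 0.24 (SE, n = 2 libraries for each fraction here and for every gene, adjusted p 0.830). Sdhb, the iron-sulfur subunit that takes the electrons from Sdha (chr4:140961203-140979193), was at 1321 and 857 against 494 and 403, a log2 fold change of 1.25 ± 0.27 that missed the threshold (adjusted p 0.0669). The anchors Sdhc and Sdhd, which hold the enzyme in the membrane and bind ubiquinone, were at 318 and 230 against 196 and 137, and at 573 and 406 against 252 and 231. For each anchor both mitochondrial values lay above both rest values, as in 27.7% of all genes tested. Their log2 fold changes were 0.72 ± 0.28 and 1.00 ± 0.23 (adjusted p 0.170 and 0.0723). The ratio of Sdhb to Sdha, which does not depend on the scaling, was 0.489 and 0.458 in mitochondria and 0.222 and 0.200 in rest.

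Values in complex III differed between groups of subunits that were formed by role after the values were seen. Its 4 large core and redox subunits had a median log2 fold change of 0.82 and none was called. Of its 5 small subunits 4 were called, against 2.16% of all genes tested, with a median of 1.95. The groups also differ in coding length, with 825 to 1443 bases in the large and 171 to 336 in the small subunits. Uqcrc1 and Uqcrc2, the core proteins on the matrix side, were at 2134 and 1625 against 1095 and 1020 normalized counts, and at 786 and 610 against 476 and 414. Their log2 fold changes were 0.82 ± 0.20 and 0.64 ± 0.20 (adjusted p 0.0814 and 0.125). Cyc1, the cytochrome c1 that hands electrons to cytochrome c, was at 635 and 497 against 370 and 273, a log2 fold change of 0.82 ± 0.24 (adjusted p 0.109). Uqcrfs1, the Rieske iron-sulfur protein, was at 1344 and 1051 against 537 and 505. Its log2 fold change of 1.19 ± 0.19 just missed the threshold (adjusted p 0.0512). In each of these 4 genes both mitochondrial values lay above both rest values, as in 27.7% of all genes tested.

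Among the small subunits of complex III, Uqcrb, which helps form the ubiquinone site (chr13:66900617-66905378), was at 1921 and 1656 normalized counts in mitochondria and 354 and 353 in rest. It rose 5.03-fold, a log2 fold change of 2.33 ± 0.17 (adjusted p 0.0427), which is also the adjusted p of each called gene of complexes III to V and of Cycs given below unless another stands beside it. Uqcr11, the subunit at chr10:80402997-80406830, was at 945 and 684 against 196 and 154 and rose 4.61-fold. Both genes had mitochondrial values more than 3 times as high as any rest value. Uqcr10, which sits beside cytochrome c1 (chr11:4701973-4704342), was at 364 and 337 against 94 and 86 and rose 3.86-fold. Uqcrq, a ubiquinone-binding neighbour of Uqcrb (chr11:53427922-53430831), was at 1251 and 1143 against 331 and 333 and rose 3.59-fold. Uqcrh, the hinge protein at the docking site of cytochrome c (chr4:116066965-116075071), was at 926 and 569 against 229 and 193, with a log2 fold change of 1.78 ± 0.29 that just missed the threshold (adjusted p 0.0511). The ratio of Uqcrb to Uqcrc1 was 0.900 and 1.02 in mitochondria and 0.323 and 0.346 in rest, so that the balance of mRNAs for a single complex differed between the fractions independently of any scaling. Cycs, the mobile cytochrome c between complexes III and IV (chr6:50562563-50566538), was at 1452 and 1043 against 355 and 375 and rose 3.37-fold.

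Complex IV was the group with the most uniform values. Of its 8 tested genes 7 were called, against 2.16% of all genes tested, and the log2 fold changes lay between 1.47 and 2.17. Cox6c (chr15:35925886-35938246), a small subunit spanning the membrane, was at 3583 and 2321 normalized counts against 712 and 575 and rose 4.50-fold. Cox7b (chrX:106015700-106022450), another small membrane subunit, was at 1754 and 1602 against 389 and 365 and rose 4.44-fold. Cox5b (chr1:36691449-36693681), the zinc-binding subunit on the matrix side, was at 2041 and 1398 against 449 and 409 and rose 3.93-fold. In each of these genes the lower mitochondrial library was more than 3 times as high as the higher rest library. Cox5a, a matrix-side partner of Cox4i1 (chr9:57521274-57532426), was at 968 and 671 against 253 and 210 and rose 3.49-fold (adjusted p 0.0455). Cox7c (chr13:86044816-86046904), again a small membrane subunit, was at 349 and 258 against 87 and 91 and rose 3.35-fold. Cox6b1 (chr7:30616861-30626151), which faces the intermembrane space, was at 430 and 344 against 142 and 135 and rose least of the called complex IV genes, 2.77-fold (adjusted p 0.0440). Cox7a2l, which joins complexes III and IV into supercomplexes (chr17:83501918-83517330), was at 360 and 219 against 76 and 82, with a log2 fold change of 1.82 ± 0.29 that missed the threshold (adjusted p 0.0512).

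The paralogs Cox4i1 and Cox4i2 stood apart in level. Both encode forms of the same subunit of the enzyme, and Cox4i2 is known as the form of the lung and of low oxygen. Cox4i1 (chr8:120668222-120674207) was at 2912 and 2056 normalized counts in mitochondria and 742 and 745 in rest and rose 3.29-fold. Cox4i2 (chr2:152754173-152765037) was at 4 and 5 in mitochondria and 10 and 9 in rest. These values stood for about 3 reads over both mitochondrial libraries and 63 over both rest libraries, and the ratio of mitochondria to rest was 0.478 with an exact 95% interval from 0.0959 to 1.46, for counting error only. A difference of Cox4i2 between the fractions was not detectable at this depth. Per kilobase of the longest transcript, Cox4i1 was at 972 and Cox4i2 at 13.0 normalized counts in the mean of the rest libraries.

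The genes of complex V spanned the widest range, from 0.64 to 2.65 on the log2 scale. Of the 17 genes 8 were called, against 2.16% of all genes tested. In the F1 head, which makes ATP in the matrix, 1 of 5 genes was called and the median was 1.00. Atp5a1 and Atp5b, the alpha and beta subunits that form the catalytic ring, were at 10252 and 7367 against 5602 and 5122 normalized counts, and at 6201 and 4500 against 3686 and 3101. For each gene both mitochondrial values lay above both rest values, as in 27.7% of all genes tested. The log2 fold changes of 0.70 ± 0.25 and 0.64 ± 0.24 missed the threshold (adjusted p 0.148 and 0.163). Atp5c1, the gamma subunit that turns inside that ring (chr2:10056016-10080510), was at 2138 and 2112 against 868 and 852 and rose 2.47-fold, the smallest change among the 20 called genes. Its libraries agreed closely within each fraction. Atp5d, the delta subunit of the central stalk, was at 511 and 487 against 288 and 214 (log2 fold change 1.00 ± 0.21, adjusted p 0.0649). Atp5e, its epsilon partner, was at 438 and 204 against 109 and 64, where the mitochondrial libraries lay far apart, and its log2 fold change of 1.83 ± 0.47 missed the threshold (adjusted p 0.0865).

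The peripheral stalk keeps the F1 head from turning with the rotor. Atp5h, subunit d (chr11:115415689-115419962), was at 3517 and 2523 normalized counts against 698 and 669 and rose 4.35-fold. Atp5j, the coupling factor 6 (chr16:84827866-84835625), was at 2343 and 1990 against 638 and 599 and rose 3.49-fold. The other two members of the stalk had lower fold changes. Atp5pb, subunit b, was at 1553 and 1105 against 629 and 646 (log2 fold change 1.04 ± 0.22, adjusted p 0.0654). Atp5o, the oligomycin sensitivity protein at the top of the stalk, was at 581 and 584 against 295 and 295 (log2 fold change 0.98 ± 0.16, adjusted p 0.0502). In all stalk genes both mitochondrial values lay above both rest values, as in 27.7% of all genes tested.

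The small membrane subunits of the Fo part, which shape ATP synthase dimers or tune their stability, included the gene with the highest fold change. Of the 5 genes 4 were called, against 2.16% of all genes tested, and the median log2 fold change of the 5 was 1.85. Atp5mpl, a short proteolipid (chr12:111961375-111966977), was at 2076 and 1472 normalized counts in mitochondria and 264 and 292 in rest, and its rise of 6.28-fold (log2 2.65 ± 0.23) was the largest of the 39 genes under the deposited scaling. Atp5k, subunit e (chr5:108433244-108434448), was at 581 and 495 against 96 and 119 and rose 4.98-fold. The lower mitochondrial library of each was more than 3 times as high as the higher rest library. Atp5md, the subunit known as DAPIT (chr19:47083464-47090647), was at 318 and 304 against 91 and 80 and rose 3.61-fold. Atp5j2, subunit f (chr5:145183698-145192062), was at 736 and 574 against 215 and 190 and rose 3.21-fold. Atp5l, subunit g, was at 635 and 390 against 227 and 213 and was the lowest of these 5 genes (log2 fold change 1.17 ± 0.28, adjusted p 0.0754). The ratio of Atp5mpl to Atp5a1 was 0.202 and 0.200 in mitochondria and 0.0471 and 0.0570 in rest.

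Of the subunit c genes printed above, Atp5g1 was at 740 and 564 normalized counts against 221 and 185 and rose 3.18-fold. Atp5g3 was at 868 and 719 against 395 and 305 (log2 fold change 1.18 ± 0.21, adjusted p 0.0563). Atp5g2 was at 132 and 59 against 39 and 22 (log2 fold change 1.56 ± 0.51, adjusted p 0.131), and its libraries differed most within each fraction. The ratio of Atp5g1 to Atp5g3 was 0.853 and 0.784 in mitochondria and 0.559 and 0.607 in rest without overlap, whereas the ratio of Atp5g1 to Atp5g2, at 5.61 and 9.56 against 5.67 and 8.41, overlapped between the fractions. A large part of Atp5g2, 86.9% of its 75-base windows, also occurs in other annotated transcripts, and the authors left out reads that align to several places, so that its counts are uncertain.

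The makeup of the pool of the 40 mRNAs differed between the fractions in a way that does not depend on scaling. F1 head mRNAs took up 31.2% and 31.3% of the pool in mitochondria and 43.2% and 42.4% in rest. The catalytic subunits of complex II took up 6.41% and 5.81% in mitochondria against 11.2% and 10.9% in rest. In the opposite direction, the 8 genes of complex IV other than Cox7a2l took up 19.2% and 18.5% in mitochondria against 11.4% and 11.5% in rest. The small subunits of complex III took up 8.62% and 9.36% against 4.93% and 5.07%, and the small membrane subunits of Fo 6.93% and 6.90% against 3.66% and 4.05%. None of these 5 shares overlapped between the fractions, and the groups by role were formed after the values were seen. The 3 subunit c genes together differed little, with 2.78% and 2.86% in mitochondria against 2.68% and 2.32% in rest.

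Short coding sequences went with high fold changes. The 13 genes with under 300 coding bases had a median log2 fold change of 1.85, the 15 genes with 300 to 600 coding bases 1.72, and the 11 genes with 600 or more 0.82. The genes called higher numbered 11, 8 and 1, against 2.16% of all genes tested. Atp5c1 was the called gene among the longest. Spearman's rho between coding length and log2 fold change was -0.80 over the 39 genes, which share libraries and are not independent replicates. Within a complex it was -0.82 over the 9 genes of complex III and -0.79 over the 17 of complex V, but -0.31 over the 8 of complex IV, whose coding lengths span a narrower range. For each pair of libraries with the same number, rho was -0.75 and -0.81.

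The relation with length was not particular to these genes. Over 10611 nuclear protein-coding genes rho between spliced length, taken from the longest annotated transcript, and log2 fold change was -0.43, and over the 39 genes it was -0.61. Of 172 nuclear protein-coding genes shorter than 750 bases, 33.7% were called higher, and their median log2 fold change was 1.57. The 14 members among them had a median of 1.89, with 10 called. In the class from 750 to 1500 bases the 12 members had a median of 1.62 and the other genes 0.80, and from 1500 to 3000 bases the 10 members had 0.82 and the other genes 0.12. The members thus lay above the other genes of each of these classes, by least in the shortest class, where the other genes were at 1.54. The longest annotated transcripts of Atp5g1, Atp5md, Sdhc, Uqcrq and Cycs are much longer than their coding sequences, which places them in classes of longer genes. The part of RNA length, RNase A and fragmentation in the fold changes was not tested.

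**Figure D3:**
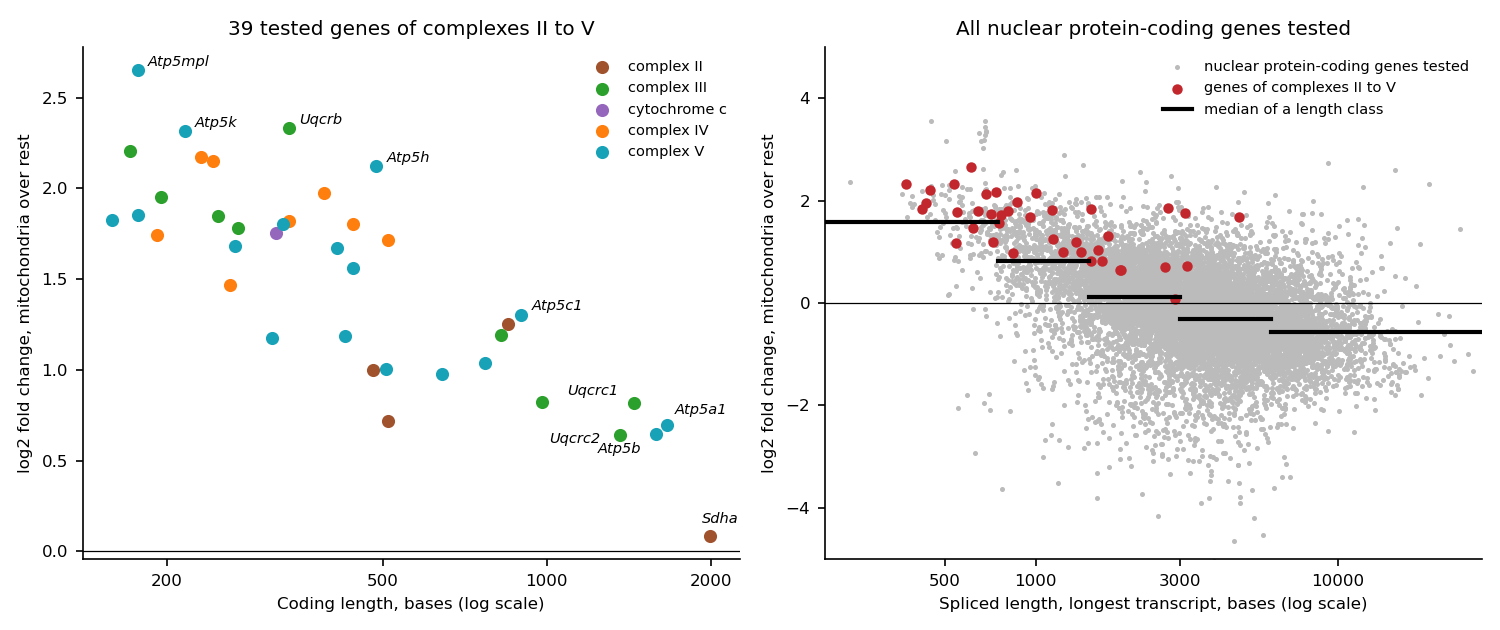
Left, coding length (bases, log scale) against the log2 fold change of the 39 tested genes, coloured by complex. Right, spliced length against log2 fold change for nuclear protein-coding genes (grey; 4 genes lie outside the axes), with the members in red and black bars at the median of each length class, which falls from 1.57 under 750 bases to -0.57 from 6000 bases; all values are under the deposited scaling, and scaling to the library total would put the members below 0.

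Levels of different genes were compared per kilobase of the longest transcript. In rest, Atp5a1 at 2005 and Atp5b at 1771 normalized counts per kilobase led, followed by Atp5h at 1002, Cox4i1 at 972 and Cox6c at 872. In mitochondria the order was Atp5h at 4428, Cox6c at 4000, Uqcrb at 3343, Atp5a1 at 3295 and Cox4i1 at 3247, and each of these 5 overlapped in its libraries with the next. In rest the values of Atp5a1 (2095 and 1915) and Atp5b (1924 and 1618) overlapped as well, and both lay above Atp5h (1023 and 981). The rank order over the 40 genes was much alike in the fractions (rho 0.90). In rest it moved with the length used: rho was 0.82 between the longest transcript and the union of exons and 0.80 between the longest transcript and the coding length. The leading gene in mitochondria moved too. Per kilobase of the union of exons Atp5a1 led at 2810, with Atp5h at 2061, and per kilobase of coding length Cox6c led at 12779.

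The libraries of a fraction were not equal for these genes. Mitochondrial library 1 was above library 2 in 38 of the 39 genes, by a median ratio of 1.38, while over all nuclear protein-coding genes the median ratio was 1.04. Rest library 1 was above library 2 in 30 genes, by a median ratio of 1.09.

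Other genes of the pathway are given for comparison, beside 2.16% of all genes tested called higher and 1.39% called lower. Of the 37 nuclear complex I subunits 17 were called higher and 0 lower, with a median of 1.53. The 6 subunits of complexes III to V encoded in mitochondria had a median of 3.19, and 3 of them passed the test: mt-Atp6, mt-Atp8 and mt-Co2. For instance mt-Co2, whose protein receives the electrons from cytochrome c in complex IV, was at 220411 and 385874 normalized counts against 28834 and 31087. In these 6 mitochondrially encoded genes mitochondrial library 2 was above library 1, opposite to most nuclear members. RNA of the whole mitochondrial chromosome lay the other way. It made up 97.6% of 183395941 normalized counts in mitochondrial library 1 and 93.5% of 81928351 in library 2. Of 33 tested assembly factors of complexes II to V 4 were called higher and 0 lower, with a median of 0.83. They were Atpif1, the inhibitor of ATP hydrolysis by complex V (895 and 811 against 124 and 163), Uqcc2, an assembly factor of complex III (182 and 166 against 40 and 39), Coa3 (66 and 66 against 19 and 16) and Higd1a (120 and 145 against 46 and 45), both tied to complex IV. These 4 were named after their values were seen. The cytosolic ribosomal protein genes, whose mRNAs are short as well, had 39 of 77 called higher and 0 lower, with a median of 1.40.

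Markers of cell types were compared between the same libraries, and none of the 29 used was called in either direction. The 6 cardiomyocyte markers summed to 276950 and 204422 normalized counts in mitochondria and 235578 and 206733 in rest, a sum that is mostly Myh6, the main myosin of the adult mouse heart, at 128576 to 184487 in the 4 libraries. Tnnt2, Tnni3, Myl2 and Actc1, mRNAs of the contractile apparatus, had both mitochondrial values above both rest values and an unadjusted p under 0.05. Tnnt2 was at 47913 and 33524 against 11712 and 10145, and the median log2 fold change of the 6 markers was 1.23. Ryr2, the calcium release channel, lay the other way at 10159 and 6395 against 22792 and 18549. The 5 endothelial markers summed to 1429 and 1262 against 2473 and 2248, and all 5 had both mitochondrial values below both rest values and an unadjusted p under 0.05. The 5 fibroblast markers summed to 8188 and 3440 against 2175 and 3063, and the 4 leukocyte markers to 337 and 205 against 130 and 160. All 5 and all 4 had both mitochondrial values above both rest values, with median log2 fold changes of 1.02 and 0.88. Of these 1 fibroblast and 2 leukocyte markers had an unadjusted p under 0.05. The 5 erythroid markers summed to 50 and 341 against 824 and 440, with Alas2 at 0 in mitochondrial library 1. All 5 had both mitochondrial values below both rest values, but 0 had an unadjusted p under 0.05. Nuclear RNAs, namely Malat1, Neat1, Kcnq1ot1 and Meg3, summed to 13656 and 8745 against 42966 and 45512, and 3 of the 4 were below without overlap and with an unadjusted p under 0.05. Of all genes tested, 27.7% had both mitochondrial values above both rest values and 33.4% had both below. At an unadjusted p under 0.05, 14.1% of all genes tested were higher and 16.2% lower. The part of the marker differences in the values of complexes II to V was not tested.

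Some members share sequence with other genes. More than 25% of the 75-base windows of Atp5g2, Atp5l, Cox7c, Atp5o, Atp5h, Uqcrb, Atp5pb and Cycs occur in other annotated transcripts, among them pseudogenes and predicted genes, and the values of these 8 genes are uncertain to that extent. Without them 16 of 31 genes were called higher, against 2.16% of all genes tested, and the median log2 fold change was again 1.68. Ends of Cox4i1, Uqcrc2, Atp5a1, Atp5pb and Atp5j also lie in transcripts of their neighbours Emc8, Pdzd9, Haus1, Wdr77 and Gabpa.

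The number of called genes moved with the processing. The difference from the median gene moved less, but a scaling shifts all genes nearly alike and could hardly move it. With each library left out in turn no gene of the whole table was called, and the median of the 39 genes stood 1.49 to 1.997 above that of all genes on the log2 scale. Scaled to the total outside the mitochondrial chromosome, 10 of the 39 genes were called higher, against 1.06% of all genes, and 0 lower, against 31.4%, with a median of 0.82. The log2 fold change was then above 0 for 32 of the 39 genes. Both mitochondrial values lay above both rest values in 22 of the 39 genes and in 7% of all genes. They lay below in 1 of the 39 and in 68.3% of all genes. No gene was called at a pseudocount of 0.1, where 36 of the 39 genes had an unadjusted p under 0.05.

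**Figure D4:**
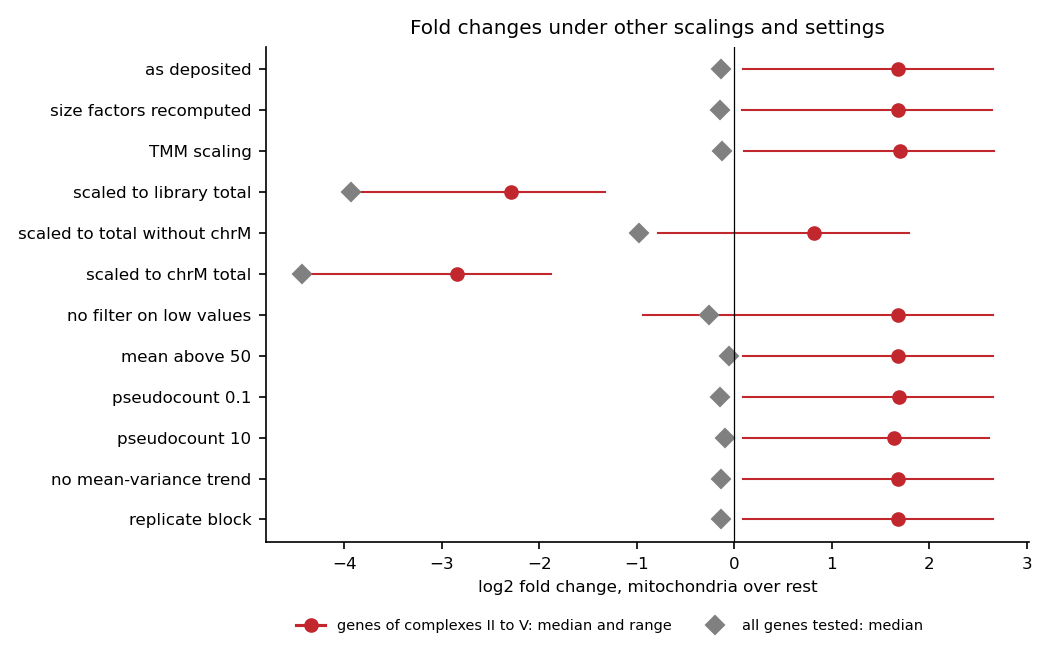
Median log2 fold change (red points) and range (red lines) of the genes of complexes II to V, with the median of all tested genes (grey), under each setting that kept all 4 libraries. The red median lies above the grey by 1.59 to 1.93 in the settings shown, while its sign turns under scaling to the library total (-2.29) and to the mitochondrial chromosome (-2.84). A scaling shifts both medians nearly alike, and the variance trend and replicate block leave both unchanged, so the distance could hardly move in these settings.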

How the data were processed

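The deposited table holds, for 4 libraries, a score per gene: the reads that the authors counted, divided by a size factor and rounded, here called the normalized count. The authors trimmed, aligned (STAR 2.7.10a, mm10), counted reads over exons (featureCounts 2.0.2) and compared fractions with DESeq2 (1.30.1; tools and versions from the submitters' processing notes), leaving out reads that map to several genes or places. The use of strand in counting is not given in the sources used here. The fold changes and p-values of the authors in that table were not used.

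As the values are not counts, log2(normalized count + 1) was modelled in limma (3.58.1, under R 4.3.3), with moderated variances that follow a trend with the mean, for 12150 genes that reached 10 normalized counts in 2 or more libraries. All folds are on this scale, which understates changes of low genes. Tests were two-sided, with Benjamini-Hochberg adjustment over all genes tested and a threshold of 0.05. Many adjusted p-values are tied, as this adjustment can give the same value to genes whose unadjusted p-values differ. Reads were estimated from the smallest step between values, and rounding hid whole reads in the rest libraries, so no count test was run. The fit was tested on simulated data in which 200 of 12150 genes were changed 4-fold. It recovered 50.5% of these with 0 false calls, so that a gene that was not called can still differ. The simulation gave all genes and both fractions the same spread besides counting error, so these rates need not hold for the real libraries.

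The members, lists and comparisons were chosen with earlier results of these data known, and the groups of subunits by role after the values were seen. Every member could be named; the called genes and the highest and lowest of each complex were given in every library. Levels per length used GENCODE M21, where the positions of all 40 genes matched. Scaling, filter, pseudocount, variance model, replicate block and left-out libraries were varied. Scripts ran in Python 3.11.15 (scipy 1.17.1, pandas 2.3.3, numpy 2.4.6; figures, matplotlib 3.10.9).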

Additional observations from a re-analysis of the deposited data

How the results depend on the processing

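Of the 39 tested genes 20 were called higher in mitochondria and 0 lower (2.16% and 1.39% of all genes), with a median log2 fold change of 1.68. Scaled to the library total, 0 were called higher and 39 lower, as were 98.9% of all genes, and the median was -2.29. Scaled to the total of the mitochondrial chromosome, it was 0 and 39, with 99.4% of all genes lower and a median of -2.84. Scaled to the total without that chromosome, 10 were called higher, against 1.06% of all genes, 32 were above 0, and the median was 0.82. These scalings moved the median of all genes from -0.14 to -3.93, -4.43 and -0.98. The genes with both mitochondrial values above both rest values numbered 38, and 0, 0 and 22 under the same scalings (27.7%, 0.0494%, 0.0165% and 7% of all genes). With genes limited to a mean above 50 normalized counts 31 were called higher (14.2% of all genes), without the mean-variance trend 1 (0.198%), and with a pseudocount of 0.1 it was 0, where limma called 0 genes of the whole table and 36 members had an unadjusted p under 0.05. With a library left out, the lone library of a fraction was assumed to vary like the other fraction, and 0 of 12150 genes were called each time, with 26 to 35 members at an unadjusted p under 0.05. The calls under recomputed size factors (24), TMM scaling (25), no filter (22) and a pseudocount of 10 (25) were within 1.5 times of 20. Of all genes tested 2.46%, 3.65%, 1.77% and 4.41% were called higher in these settings. The median of the members minus that of all genes stayed between 1.49 and 1.997 in all settings, and was lowest without mitochondrial library 1. A scaling shifts all genes nearly alike, and the variance trend and replicate block leave the fold changes as they are. These settings could therefore hardly move the difference.

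Relative to the median gene, Sdha turned in direction when scaled to the mitochondrial chromosome (-0.0158) and, among the libraries left out in turn, without mitochondrial library 1 (-0.12, up to 0.46 without mitochondrial library 2, with 0.23 for all libraries). Of the other values of single genes 545 moved by less than the spread between replicates and 38 by more. Most of these settings could move such values little. A scaling nearly cancels relative to the median gene, and the variance trend and replicate block leave fold changes unchanged. Leaving out a library moves a gene's own fold change by no more than that spread, so these counts do not measure stability. Without the members that share sequence (chosen after seeing the data), 16 of 31 were called higher, against 2.16% of all genes tested. The causes of these changes were not tested.

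Replicate numbers are shared between the fractions, but nothing says that they mark the same animals. The deviations of replicates 1 and 2 correlated across genes with a Pearson r of 0.13 over 12150 genes and 0.47 over the 39 members, and 2 pairs cannot decide on a pairing. With the replicate block 29 members and 470 genes were called higher and 309 genes lower, against 20, 262 and 169 without it.

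The depth on nuclear genes limits single values: the 40 genes rest on 16186 and 18385 reads in the mitochondrial libraries. With 2 libraries for each fraction, an exact permutation test of 2 against 2 has no p under the threshold.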
